A study of Homo sapiens with 6 samples.

Results

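The cytosolic ribosomal protein genes encode the proteins of the ribosome that translates nuclear-encoded mRNA. They were taken as the protein-coding genes of GENCODE release 44 whose symbol is RPL or RPS followed by a digit, together with RPLP0, RPLP1, RPLP2 and RPSA and without the RPS6K kinases and RPS19BP1. This rule reads symbols and no measured value. It found 90 genes among the 63241 genes of the count table, of which 55 belonged to the large subunit and 35 to the small subunit. By symbol these were split into 77 core genes (46 large and 31 small), 10 genes from a chosen list of paralogs, and 3 readthrough genes that join a ribosomal protein gene to its neighbour. The core proteins of FAU and RACK1 have symbols outside the rule and are described apart.

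The RNA came from HT-1376, an established human bladder carcinoma cell line of wild-type genotype by its label. Cells in 3 libraries (siNC) received a control siRNA and cells in 3 libraries (siSHMT2) received an siRNA against SHMT2, the mitochondrial serine hydroxymethyltransferase, all delivered by lipofection and all collected after 24 h. An siRNA lowers its target in a mixed population for a limited time, and the groups were made from a single cell line. In total a library held 817748, 660559 and 890574 counts in siNC replicates 1 to 3. In siSHMT2 replicates 1 to 3 it held 533689, 818859 and 815061. These counts are a small part of the sequenced reads that the paper reports for each sample. Why the other reads were not counted was not tested.

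A ribosome is built from rRNA and about equal numbers of each ribosomal protein, so the cell makes the proteins of both subunits together. Their mRNAs are abundant and short and usually begin with a 5′ terminal oligopyrimidine (TOP) tract, a C at the cap followed by a run of C and T, through which mTOR signalling and the binding protein LARP1 set their translation. Ribosomal proteins outside the ribosome, above all RPL5 and RPL11 with the 5S rRNA, bind MDM2 and stabilise p53. In tumour cells ribosome production is a common target of MYC.

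The siRNA target was checked first. SHMT2 had 28, 15 and 20 counts in siNC and 9, 2 and 5 counts in siSHMT2. All siSHMT2 values lay below all siNC values, and the log2 fold change was -1.78, with a standard error (SE) of 0.48. It was -2.58 without siSHMT2 replicate 1 and -1.32 without siSHMT2 replicate 2. In edgeR's quasi-likelihood (QL) test SHMT2 had an unadjusted p of 0.00056. Its adjusted p was 0.93 after Benjamini-Hochberg (BH) correction over 7207 genes.

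The epithelial label was read from markers. Keratins KRT8, KRT18 and KRT7 had 13773, 5544 and 2333 counts in total, EPCAM had 72, and the urothelial differentiation genes KRT20 and UPK2 had 1 each. Of 12 markers of fibroblasts, endothelium, immune cells and erythroid cells, 0 passed the filter for testing. PTPRC, CD3E, HBB, DCN, PDGFRB and VWF were at 0 in every library, and the most abundant marker of the list was COL1A2 with 62 counts. GATA3, a urothelial transcription factor, was the epithelial marker with the smallest p, with a log2 fold change of 0.54 (SE 0.23) and an unadjusted p of 0.023 (edgeR). Its adjusted p was 0.999 (edgeR, BH), and whether it bears on the ribosomal protein genes was not tested.

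By the deposited counts, ribosomal protein genes were among the genes with the highest levels. The strand setting behind these counts is not given, and the levels carry that limit. Together the 90 genes held 72176 of 4536490 counts, or 1.59%. FPKM, the count divided by gene length and by the library's summed counts, placed the core genes at a median percentile of 97.9 among the 13627 protein-coding genes with a count, and 71 of the 77 were at or above the 90th percentile. The levels followed the same order in both groups, with a Spearman's rho of 0.995 across the 77 core genes between the siNC and siSHMT2 means. This value is across genes, which are not independent replicates and share the length used for FPKM.

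In the large subunit RPL7A, whose gene also carries 4 snoRNA genes, had the highest level. Its FPKM was 527, 450 and 588 in siNC and 507, 457 and 463 in siSHMT2. RPL8, close to the peptidyl transferase centre, followed with 449, 430 and 485 in siNC and 501, 444 and 428 in siSHMT2. RPL41, the smallest ribosomal protein, had 373, 280 and 337 in siNC and 374, 347 and 260 in siSHMT2. The ranges of RPL7A and RPL8 overlapped, with RPL8 reaching 501 and RPL7A as low as 450, and RPL41 lay below both in every library.

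In the small subunit RPS2, at the mRNA entry channel, had an FPKM of 269, 322 and 399 in siNC and 356, 314 and 318 in siSHMT2. RPS18, in the head of the subunit, had 347, 294 and 313 in siNC and 343, 264 and 297 in siSHMT2. The values of RPS2 and RPS18 overlapped, so their order was within the spread of the libraries.

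The lowest core levels were 8.06 FPKM for RPS29, 8.68 for RPS10, 11.7 for RPL34 and 12.1 for RPL36A, and the highest level was 61.9 times the lowest. The length behind these values matters. The listed gene length differed from the exonic length in GENCODE release 44 for 76 of the 77 core genes. Over the core genes FPKM had a Spearman's rho of -0.56 with the listed length, which is part of FPKM. With the length of the canonical transcript in place of the listed length the highest level was 39.3 times the lowest, 74 core genes were at or above the 90th percentile, and RPL7A kept its first place in the large subunit. RPS24 moved from place 9 to place 1 of the small subunit, since RPS24 has a listed length of 3307 bases and a canonical transcript of 534. RPS29, with a listed length of 7062 bases and a canonical transcript of 295, moved from place 31 to place 13.

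**Figure D1:**
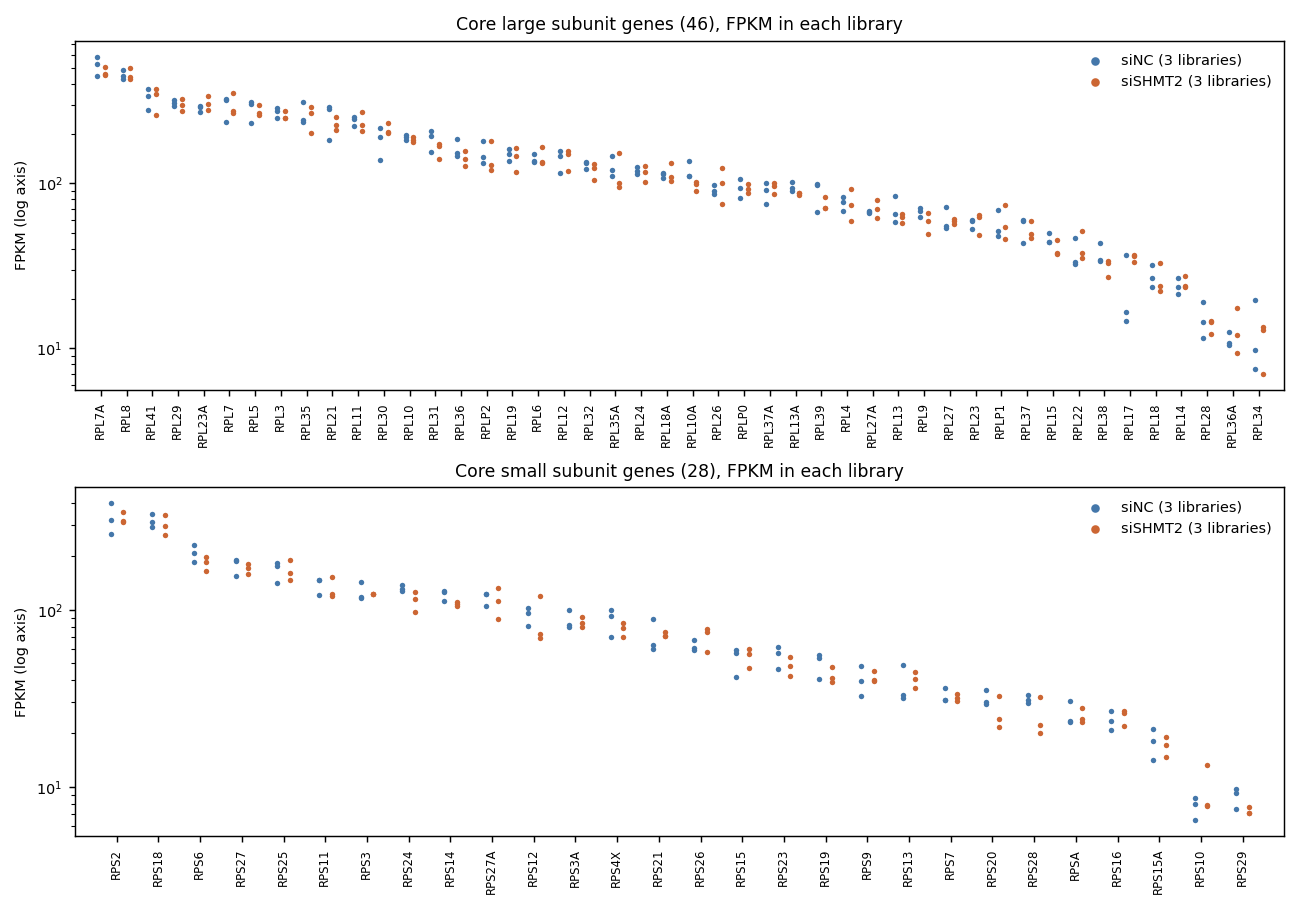
FPKM (log axis) of the 46 core large subunit genes and of 28 of the 31 core small subunit genes, ordered by their mean over the 6 libraries. Each point is 1 library, siNC in blue and siSHMT2 in orange; the levels span 61.9-fold, from RPS29 at 8.06 to RPL7A at 499, and the points of both groups mix for most genes.

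The first bases of the mRNAs were read from RefSeq windows on GRCh38.p14. For 60 core genes such a window began within 10 bases of the start of the canonical GENCODE transcript. A TOP start was called where the first base is C and at least 4 further C or T follow. It was present in 46 of the 60 core genes (76.7%), against 685 of all 14610 protein-coding genes with a window (4.7%), core genes included. Allowing the tract to begin up to 10 bases further in either direction gave 57 of 60 core genes and 33.7% of all protein-coding genes. At the annotated first base itself the paralogs had a TOP start in 2 of 7, and within 10 bases in 3 of 7. A match of these letters is a description of the annotated start and not a mapped cap site.

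The sequences below show the tracts of genes named in the results, from 5 bases before the annotated first base to 20 from it, on the strand of the gene and with the run of C and T from that base in capitals.
RPL7A, chr9:133348213-133348237, plus strand: ctttcCTTTCTCTCTCCTCCCgccg
RPL31, chr2:101002284-101002308, plus strand: gcgctCTTCCTTTCCaacttggacg
RPL39, chrX:119791611-119791635, minus strand: agcttCCCTCCTCTTCCTTTCTCCg
RPS24, chr10:78033858-78033882, plus strand: tggttCTCTTTTCCTCCTTggctgt
RPS6, chr9:19380217-19380241, minus strand: tggccCTCTTTTCCgtggcgcctcg
RPS14, chr5:150449720-150449744, minus strand: ccactCTCTCTTTCCggtgtggagt
RACK1, chr5:181243887-181243911, minus strand: tctctCTCTCTTTCactgcaaggcg
For contrast, the core gene RPL10A and the paralogs RPL7L1 and RPS27L have no run at the annotated first base.
RPL10A, chr6:35468396-35468420, plus strand: atgctagtctcttttccggttagcg
RPL7L1, chr6:42879611-42879635, plus strand: gcgccgtagctaggagcggacgcca
RPS27L, chr15:63157458-63157482, minus strand: cgagcgcagatcgcttgcagcttgc
The run was longest in RPL39, with 19 bases, and had 16 in RPL7A, 14 in RPS24, 10 in RPL31 and RPS14 and 9 in RPS6 and RACK1. In RPL10A a stretch of C and T lies a few bases inside the annotated start.

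The comparison of siSHMT2 with siNC asks whether lowering SHMT2 moved the mRNAs of the translation machinery. Across the 7207 genes that passed the filter, edgeR gave 0 (0%) with an adjusted p under 0.05, and 277 (3.84%) had an unadjusted p under 0.05. Fold changes were formed for the 79 ribosomal protein genes with at least 60 counts over the 6 libraries, all of which passed the filter for testing. The smallest adjusted p among them was 0.999, so no ribosomal protein gene passed. An unadjusted p under 0.05 was reached by 2 of the 79, with 1 higher in siSHMT2 (background 1.94% of all tested genes) and 1 lower (background 1.9%). Both were paralogs, and none of the 76 core genes tested reached it.

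The intervals were narrow for most of the genes. The standard error of the log2 fold change ran from 0.11 to 0.36 with a median of 0.16, against a median of 0.31 over all tested genes. The 95% interval held 0 for 77 of the 79 genes. For 76 it lay within a 2-fold change either way, and for 65 within a 1.5-fold change either way. The 3 genes whose interval reached past 2-fold were RPL26L1, RPL17 and RPL7L1, which had 132, 121 and 115 counts in total.

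Below 0 lay 53 of the 79 log2 fold changes (67.1%), against 50.2% of all tested genes, and the median was -0.046, against -0.0010 over all tested genes. The large subunit had a median of -0.043 over 49 genes and the small subunit a median of -0.052 over 30 genes. Without siSHMT2 replicate 3 these medians were 0.00085 and -0.020, so the shift of the large subunit rested on this library. Genes of a subunit share the same 6 libraries and are not replicates, and no test was made over the list.

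**Figure D2:**
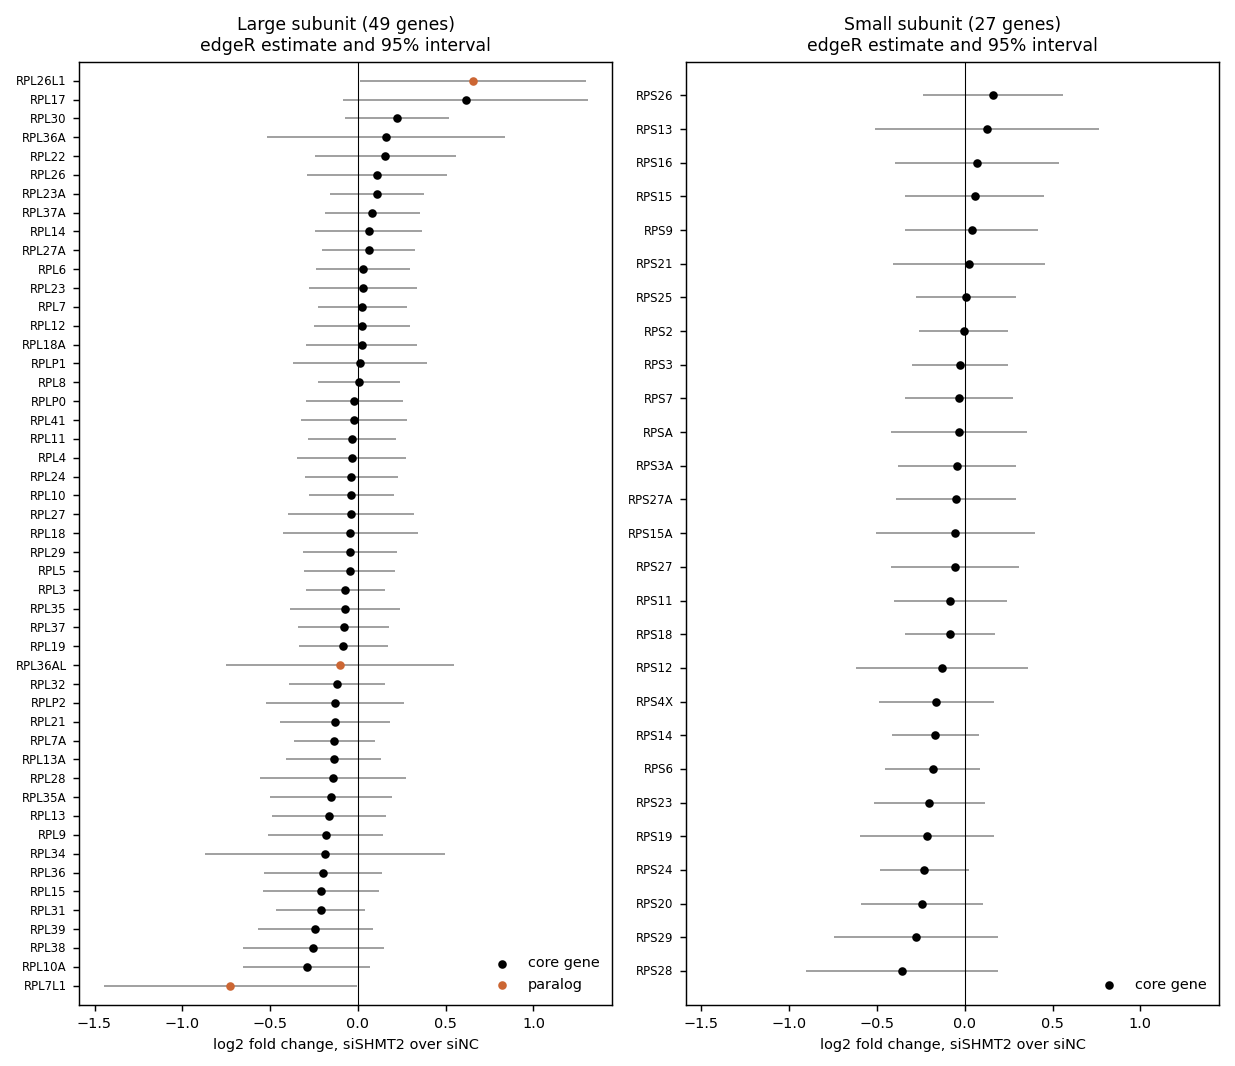
Log2 fold change of siSHMT2 over siNC for the 49 large and for 27 of the 30 small subunit genes with at least 60 counts. The line is a 95% interval formed from the edgeR test. Core genes are black and paralogs orange; all intervals shown cross 0 except those of RPL26L1 and RPL7L1.

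The subunits were next compared as wholes. Large subunit genes held 1.12%, 0.988% and 1.17% of all counts in siNC and 1.14%, 1.05% and 0.995% in siSHMT2. The means were 1.09% ± 0.095 (SD, n = 3) and 1.06% ± 0.072 (SD, n = 3), and the groups overlapped. Small subunit genes held 0.535%, 0.487% and 0.557% in siNC and 0.504%, 0.496% and 0.484% in siSHMT2. The means were 0.526% ± 0.036 (SD, n = 3) and 0.495% ± 0.010 (SD, n = 3). The lowest small subunit share was in siSHMT2 replicate 3 and the next lowest in siNC replicate 2, so these groups overlapped as well. On the log2 scale the ratio of the means was -0.044 for the large and -0.089 for the small subunit. Without siNC replicate 3 these ratios were 0.0078 and -0.046, so the sign for the large subunit rested on this library. In bulk RNA, fewer cells that express a gene and less RNA per cell cannot be told apart.

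Counts of the large subunit were 2.10, 2.03 and 2.10 times those of the small subunit in siNC and 2.26, 2.12 and 2.05 times in siSHMT2. The ratio was highest in siSHMT2 replicate 1, the library with the fewest counts, and the groups overlapped.

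**Figure D3:**
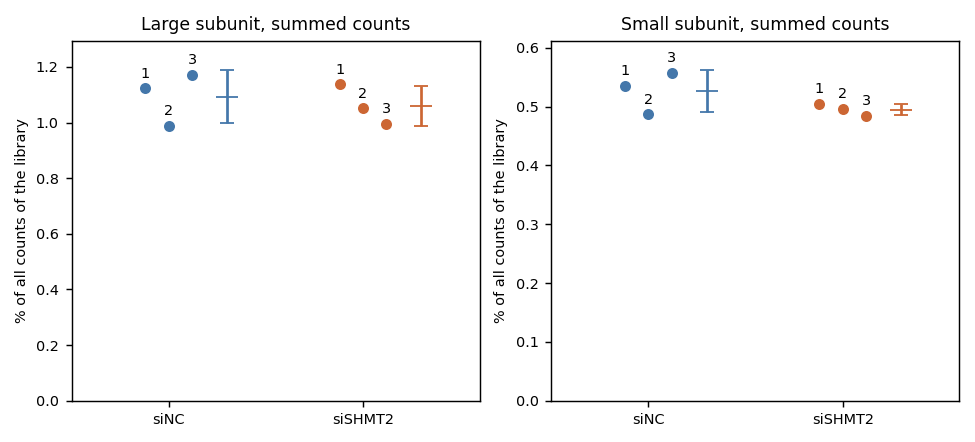
Share of all counts of a library held by the 55 large and 35 small subunit genes, 1 numbered point per replicate, with the group mean and SD at the right of each group. The shares of both groups overlap for both subunits, at 0.988% to 1.17% for the large and 0.484% to 0.557% for the small subunit.

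Single libraries moved many ribosomal protein genes together. In log2 CPM, a TMM-normalized count level, 42 of 49 large subunit genes and 24 of 30 small subunit genes lay below their own mean in siSHMT2 replicate 3. Their median deviation there was -0.17 for the large and -0.11 for the small subunit, while that of all tested genes was 0.0058. This library was the lowest of the 6 for 30 of the 49 large subunit genes (61.2%), against 17.5% of all tested genes. For the small subunit it was the lowest for 8 of 30 genes (26.7%). In siNC, replicate 3 was the highest library for 16 of the 49 large subunit genes (32.7%), against 14.6% of all tested genes. In siSHMT2 replicate 1 the median deviation was 0.083 for the large and -0.027 for the small subunit, and it was the highest library for 20 of the 49 large subunit genes (40.8%), against 19.8% of all tested genes. The siSHMT2 libraries thus differed more from each other in the large subunit than the group medians differed. Their summed counts were 533689 in replicate 1 and 815061 in replicate 3, and the part of these totals or of library preparation in this was not tested.

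**Figure D4:**
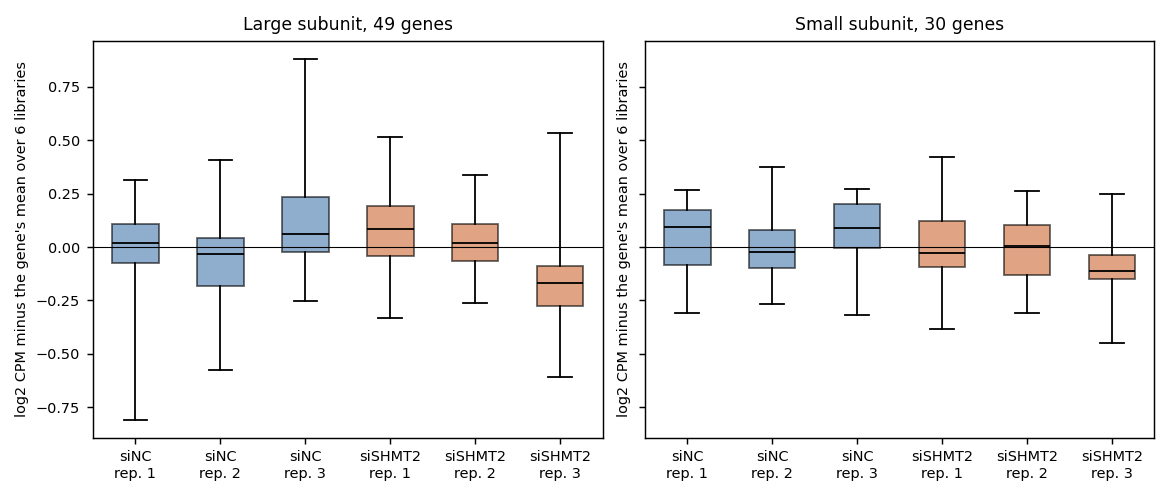
Deviation of each gene's log2 CPM from its mean over the 6 libraries, for 49 large and 30 small subunit genes. Boxes give the median and quartiles and whiskers the lowest and highest gene; siSHMT2 replicate 3 has the lowest median in both subunits (-0.17 and -0.11).

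The groups did not overlap in log2 CPM for 5 of the 79 genes (6.33%), against 663 of all tested genes (9.2%). RPL26L1 was higher in all siSHMT2 libraries (background 4.65% of tested genes), and RPL10A, RPS14, RPS6 and RPS29 were lower in all of them (background 4.55%). By subunit these were 2 of 49 large (4.08%) and 3 of 30 small subunit genes (10%), the latter all lower in siSHMT2.

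Of the core genes, RPS24 had the smallest p. It encodes a small subunit protein needed for pre-rRNA processing and is mutated in Diamond-Blackfan anaemia. It had 371, 285 and 376 counts in siNC against 202, 339 and 260 in siSHMT2, and its FPKM was 137, 131 and 128 against 115, 125 and 96.5. The FPKM groups did not overlap (p = 0.1 by a two-sided exact permutation test, the minimum with 3 libraries against 3), while after TMM normalization siNC replicate 3 fell below siSHMT2 replicate 2 and they did. The log2 fold change was -0.23 (SE 0.13, 95% interval -0.48 to 0.024), and it was -0.11 without siSHMT2 replicate 3 and -0.34 without siSHMT2 replicate 2. Its unadjusted p was 0.074 and its adjusted p 0.999 (edgeR, BH). RPS24 (ENSG00000138326) spans 78033760 to 78056813 of chromosome 10 (GRCh38, plus strand).

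The small subunit genes whose groups did not overlap in log2 CPM were RPS14, RPS6 and RPS29. RPS14, at the mRNA exit side of the platform, had 326, 230 and 350 counts in siNC and 180, 283 and 268 in siSHMT2, with a log2 fold change of -0.17 (SE 0.12). RPS6, the substrate of the S6 kinases downstream of mTOR, had 258, 169 and 254 counts against 136, 186 and 222, with a log2 fold change of -0.18 (SE 0.13), or -0.11 without siNC replicate 1. RPS29 had 56, 35 and 58 counts against 29, 41 and 41, with a log2 fold change of -0.28 (SE 0.23). The intervals of all 3 held 0. On the FPKM scale the groups of RPS6 and RPS29 overlapped.

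RPS28 had the lowest log2 fold change of the small subunit, -0.36 (SE 0.27), from 37, 31 and 45 counts in siNC and 26, 28 and 25 in siSHMT2. It was -0.54 without siSHMT2 replicate 1 and -0.21 without siSHMT2 replicate 3. RPS20 had -0.25 (SE 0.17), from 136, 91 and 127 counts against 55, 126 and 93, and it was -0.46 without siSHMT2 replicate 2 and -0.14 without siSHMT2 replicate 1. In the other direction stood RPS26 at 0.16 (SE 0.20) and RPS13 at 0.13 (SE 0.32). RPS26 had 0.080 without siSHMT2 replicate 3 and 0.28 without siSHMT2 replicate 2. RPS13 changed sign when siNC replicate 3 was left out, to -0.0090. None of these 4 genes had an unadjusted p under 0.05.

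In the large subunit RPL10A (ENSG00000198755), part of the L1 stalk, had the lowest log2 fold change of the core genes. It had 97, 96 and 105 counts in siNC and 58, 87 and 78 in siSHMT2, a log2 fold change of -0.29 (SE 0.18, 95% interval -0.65 to 0.067), and -0.16 without siNC replicate 2. RPL31, at the rim of the peptide exit tunnel, had 368, 239 and 431 counts against 214, 321 and 266 and a log2 fold change of -0.21 (SE 0.13), and -0.11 without siSHMT2 replicate 3. The groups of RPL10A did not overlap and those of RPL31 did. RPL7A, with the most counts of all members, had 502, 346 and 609 counts against 315, 436 and 439 and a log2 fold change of -0.13 (SE 0.11, 95% interval -0.36 to 0.096), and -0.060 without siNC replicate 3.

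RPL17 and RPL30 stood at the other end. RPL17, another exit tunnel protein, had 11, 10 and 30 counts in siNC and 18, 25 and 27 in siSHMT2, a log2 fold change of 0.61 (SE 0.35). Only siNC replicate 3 overlapped with siSHMT2, and the log2 fold change was 1.16 without it and 0.36 without siNC replicate 1. RPL30 had 199, 104 and 192 counts against 140, 190 and 187, a log2 fold change of 0.22 (SE 0.15). It was 0.10 without siNC replicate 2 and 0.35 without siNC replicate 1, and its exons lie partly under an antisense gene described below.

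Grouped by place in the ribosome, the core genes were spread around 0. The stalk that recruits elongation factors (RPLP0, RPLP1, RPLP2 and RPL12) had log2 fold changes of -0.020, 0.013, -0.13 and 0.024, with a median of -0.0037. RPL5 and RPL11, the proteins of the 5S particle that binds MDM2, had -0.047 (SE 0.13) and -0.032 (SE 0.12). RPL5 had 301, 186 and 336 counts in siNC and 192, 258 and 263 in siSHMT2, and RPL11 had 320, 237 and 361 against 178, 294 and 352, with the groups overlapping in both.

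The 8 exit tunnel genes ranged from RPL39 at -0.24 to RPL17 at 0.61, with a median of -0.055. At the mRNA entry channel RPS2, RPS3 and RPS9 had -0.0067, -0.028 and 0.039, and at the exit channel RPS14, RPS26 and RPS28 had -0.17, 0.16 and -0.36. Of 9 genes mutated in Diamond-Blackfan anaemia, 8 were tested, with a median of -0.039 and a range from -0.23 for RPS24 to 0.16 for RPS26. In each of these groups 0 genes had an unadjusted p under 0.05 (edgeR), against 3.84% of all tested genes. RPL13A, whose protein is released from the ribosome in the interferon response, had -0.14 (SE 0.14). RPSA, the laminin receptor form of a small subunit protein, had -0.033 (SE 0.19), and RPS27A, which is made as a fusion with ubiquitin, had -0.051 (SE 0.17).

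Each of the 10 paralogs had at most 132 counts. RPL26L1 (ENSG00000037241, chromosome 5 of GRCh38 from 172958729 to 172969771, plus strand) had 16, 15 and 23 counts in siNC and 17, 26 and 35 in siSHMT2. The mean FPKM of siNC was 30.6 ± 4.22 (SD, n = 3) and that of siSHMT2 was 47.9 ± 8.67 (SD, n = 3), with every siSHMT2 library above every siNC library (p = 0.1 by a two-sided exact permutation test, its minimum here). The log2 fold change was 0.65 (SE 0.32, 95% interval 0.011 to 1.30), with an unadjusted p of 0.046 and an adjusted p of 0.999 (edgeR, BH). The parent gene RPL26 had 426 counts and a log2 fold change of 0.11 (SE 0.20).

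RPL7L1 (ENSG00000146223, chromosome 6 from 42879616 to 42889925, plus strand) had 22, 12 and 41 counts in siNC and 11, 15 and 14 in siSHMT2. The groups overlapped, and siNC replicate 3 stood above the rest. The log2 fold change was -0.73 (SE 0.36, 95% interval -1.45 to -0.0071) with an unadjusted p of 0.048 (edgeR), and -0.31 without siNC replicate 3. The parent gene RPL7 had 2075 counts and a log2 fold change of 0.024 (SE 0.13). RPL36AL, the third paralog tested, had 130 counts, slightly more than the 120 of RPL36A, and a log2 fold change of -0.10 (SE 0.32).

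The remaining 11 genes had under 60 counts and no fold change was formed. RPS27L, a p53-regulated paralog of RPS27, had 7, 11 and 10 counts in siNC and 4, 3 and 7 in siSHMT2. These 42 counts stood against 494 for RPS27. RPS10, the core gene among the 11, had 10, 6 and 10 counts in siNC and 10, 9 and 9 in siSHMT2. RPL22L1 had 10 counts and RPL39L 1 count in total. At 0 in every library were the paralogs RPL10L, RPL3L, RPS4Y1 and RPS4Y2 and the readthrough genes RPL17-C18orf32, RPL36A-HNRNPH2 and RPS10-NUDT3.

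The 3 core genes with the fewest counts were RPS10 with 54, RPL36A with 120 and RPL17 with 121. Of the 13 core genes that share exons with another gene on the same strand, these are the ones whose partner is among the 3 readthrough genes, over 31.5%, 8.4% and 24.9% of their exonic bases. The next lowest core genes, RPS13 with 137 counts and RPL34 with 142, share none. Whether reads that fit 2 genes were left out of the counts was not tested, since the counting program is not given in the sources used here, so the levels of these 3 genes are uncertain. The same holds for the copies elsewhere in the genome: 1600 annotated pseudogenes carry the symbol of a ribosomal protein gene, and 246 of them had counts, 1421 in all. The pseudogenes of RPS2 had 315 of these, against 2313 for RPS2 itself.

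Exons of genes on the opposite strand covered part of 26 of the 77 core genes, and over 10% of the exonic bases of 9. The kit keeps the strand, but the setting of the counting is not given, so reads of a gene and its antisense partner may not have been told apart. Whether reads were counted on the strand of the gene or on the opposite strand was not tested. RPL10 was covered most, at 50.5% of its exonic bases, by DNASE1L1 and a lncRNA gene with 105 and 164 counts against 1935 for RPL10. RPL30 was covered at 40.8%, by RPL30-AS1 (21.9% of its bases) and a lncRNA gene (18.9%), with 8176 and 46 counts against 1012 for RPL30. RPS10-NUDT3 was covered at 37.5% by a lncRNA gene (ENSG00000225339) with 10868 counts, while the readthrough gene itself was at 0. RPS28 was covered at 20.6%, and its main partner KANK3 had 17 counts.

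The opposite gene had more counts than the core gene in 4 of 33 pairs. Besides RPL30 these were RPL15, with 621 counts against 17347 for NKIRAS1, RPS23, with 760 against 4093 for ATG10, and RPL36A, with 120 against 341 for GLA. NKIRAS1 shares 4.37% of the exonic bases of RPL15 and lay at an FPKM of 921, 1043 and 893 in siNC and 831, 1024 and 913 in siSHMT2, above every ribosomal protein gene. Its log2 fold change was -0.045 (SE 0.10), and that of RPL30-AS1 was 0.0054 (SE 0.099). The median log2 fold change was -0.046 for the 26 core genes with opposite-strand exons and -0.044 for the 50 tested core genes without.

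**Figure D5:**
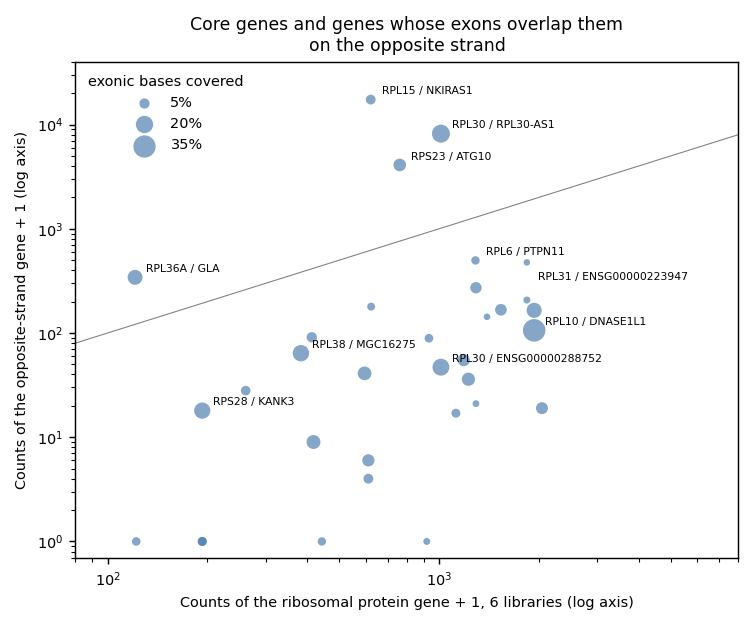
Total counts over 6 libraries of core ribosomal protein genes (horizontal) and of the genes whose exons overlap them on the opposite strand (vertical), both plus 1 on log axes. Each point is 1 of 33 pairs, its size is the share of the core gene's exonic bases covered, and the line marks equal counts; 4 pairs lie above it, with RPL15 and NKIRAS1 at the top.

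By other annotated features the medians lay close together. The 28 core genes that carry 60 snoRNA genes within their bounds had a median log2 fold change of -0.046 and the others tested -0.044. Core genes with a TOP start had a median of -0.046 over 45 genes and those with another start -0.076 over 14. The core genes lie on 21 chromosomes, with 12 on chromosome 19.

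FAU and RACK1, whose proteins also belong to the core set, had 338 and 1240 counts. FAU had a log2 fold change of 0.21 (SE 0.21), with 62, 39 and 64 counts in siNC and 44, 66 and 63 in siSHMT2. RACK1, a small subunit scaffold for kinases, had -0.24 (SE 0.13), with 237, 177 and 289 counts against 138, 211 and 188. In log2 CPM the groups did not overlap for either. FAU was higher in siSHMT2 (background 4.65% of all tested genes) and RACK1 lower (background 4.55%), and neither had an unadjusted p under 0.05.

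Among 16 other genes of translation known for TOP mRNAs, 15 were tested, and 0 had an unadjusted p under 0.05 against 3.84% of all tested genes (edgeR). The list had a median log2 fold change of -0.023. EEF1A1, the elongation factor that brings tRNA to the ribosome, had 1198, 811 and 1251 counts in siNC and 794, 939 and 941 in siSHMT2, a log2 fold change of -0.12 (SE 0.11). It was -0.24 without siSHMT2 replicate 1 and -0.043 without siSHMT2 replicate 3. PABPC1, the cytoplasmic poly(A)-binding protein, had the smallest p of the list, with 120, 114 and 143 counts against 66, 97 and 113 and a log2 fold change of -0.33 (SE 0.16). The groups of PABPC1 did not overlap, and in log2 CPM this held for 2 of the 15 genes (13.3%), against 9.2% of all tested genes.

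Of 22 tested initiation factor genes, 1 had an unadjusted p under 0.05, near the 3.84% of all tested genes. This was EIF3M, a subunit of the eIF3 complex, with 25, 16 and 28 counts in siNC and 8, 10 and 13 in siSHMT2. Every siSHMT2 value lay below every siNC value, and the log2 fold change was -1.0 (SE 0.37). EIF3M was the 1 gene of the 22 whose groups did not overlap in log2 CPM (4.55%), against 9.2% of all tested genes. The unadjusted p was 0.0089 and the adjusted p 0.999 (edgeR, BH).

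Among 39 tested genes of ribosome assembly, 1 had an unadjusted p under 0.05 (background 3.84%), the pseudouridine synthase gene DKC1, with 84, 56 and 81 counts against 38, 52 and 58 and a log2 fold change of -0.44 (SE 0.20). The list had a median of -0.049. Of 9 tested genes of RNA polymerase I and its factors, 0 had one by edgeR (background 3.84%), and the smallest p was that of POLR1F, with a log2 fold change of -0.72 (SE 0.43), or -1.12 without siSHMT2 replicate 3.

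Of 14 tested regulators of ribosomal protein synthesis, 1 had an unadjusted p under 0.05 (background 3.84%). LARP1, which binds the TOP tract, had 197, 127 and 224 counts in siNC and 86, 146 and 143 in siSHMT2. Its FPKM was 27.2 ± 3.76 (SD, n = 3) and 20.4 ± 1.09 (SD, n = 3), without overlap of the groups. The log2 fold change of LARP1 was -0.40 (SE 0.15), with an unadjusted p of 0.0081 and an adjusted p of 0.999 (edgeR, BH). In log2 CPM the groups did not overlap for 3 of the 14 regulators (21.4%), against 9.2% of all tested genes. MTOR had -0.059 (SE 0.29). MYC had 33, 26 and 28 counts against 25, 28 and 24 and a log2 fold change of -0.029 (SE 0.29).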

How the data were processed

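The authors checked reads with FastQC 0.11.9, trimmed them with fastp 0.23.4 and aligned them to GRCh38 with HISAT2 2.2.1. The counting program, the annotation release and the strand setting are not given in the sources used here. The deposited counts are whole numbers per gene without normalization. The deposited FPKM values scale each count by the listed gene length and the library's summed counts, as recomputed. Counts were compared in R 4.3.3 with edgeR 4.0.16 (filterByExpr, TMM, quasi-likelihood test, two-sided, Benjamini-Hochberg adjustment over 7207 genes). In edgeR a p-value sets the difference between the groups against the spread between these libraries, estimated with information shared across genes. log2 CPM used a prior count of 2. Alternatives used DESeq2 1.42.0 and limma 3.58.1, and the fits were tested on simulated data. Exons, pseudogenes and snoRNA genes were taken from GENCODE release 44 (62666 of 63241 genes matched), and start sequences from RefSeq on GRCh38.p14. Named genes were, per subunit, the core genes with the highest FPKM or fewest counts and the members with the smallest p in each direction, then fixed genes and the genes with the smallest p of each list. RPS3, RPS23, RPS29, RPL7, RPL15, RPL26, RPL36AL, RPL39, MTOR, NKIRAS1 and RPL30-AS1 were added after their values were seen. Some genes that this rule names are not reported here. The genes, lists and tests were chosen with earlier results of these data known.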

Additional observations from a re-analysis of the deposited data

How the results depend on the processing

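The counted total of 533689 to 890574 per library, a small part of the sequenced reads, limits genes with few counts. The smallest p values belong to paralogs with at most 132 counts. No ribosomal protein gene had an adjusted p under 0.05 in any of the 14 alternative fits by edgeR, DESeq2 or limma. The number with an unadjusted p under 0.05 was 2 as reported, 1 with no filter on counts, 0 with DESeq2 and 3 with limma at either pseudocount. Over all tested genes it was 277 as reported, 699 without the filter, which tests 20836 genes, and 117 with DESeq2. For the change of test the cause was not tested. The median log2 fold change ran from -0.058 to -0.039 for the large and from -0.059 to -0.043 for the small subunit over the alternatives with all 6 libraries.

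Replicate numbers did not pair the libraries: same-numbered siNC and siSHMT2 libraries had correlations of -0.016, 0.049 and -0.012 between their deviations. With the replicate number as a block, 1 ribosomal protein gene, RPS24, had an unadjusted p under 0.05, and RPS2 had a log2 fold change of 0.00039.

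With each library left out in turn (6 fits), adjusted p values under 0.05 over all genes numbered from 0 to 1, the 1 appearing without siSHMT2 replicate 3. The ribosomal protein genes with an unadjusted p under 0.05 ran from 0 (without siSHMT2 replicate 3) to 3 (without siNC replicate 2). Those whose groups do not overlap ran from 11 to 17, since 2 libraries against 3 separate more easily, and all tested genes then had 18.3% to 21.1%. The medians ran from -0.097 to 0.00085 for the large and from -0.095 to -0.020 for the small subunit, and the log2 ratio of the summed shares from -0.11 to 0.0078 and from -0.14 to -0.046.

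Single-gene fold changes that changed sign with 1 library left out ran from -0.11 to 0.14 for RPL41, -0.055 to 0.066 for RPL8, -0.074 to 0.37 for RPL36A, -0.41 to 0.32 for RPL34, -0.0090 to 0.37 for RPS13, -0.14 to 0.13 for RPS2, -0.14 to 0.088 for RPSA, -0.22 to 0.072 for RPS27A, -0.073 to 0.060 for RPLP0, -0.16 to 0.18 for RPLP1, -0.30 to 0.0057 for RPLP2, -0.060 to 0.15 for RPL12, -0.13 to 0.0097 for RPL5, -0.13 to 0.042 for RPL11, -0.088 to 0.0037 for RPL10, -0.051 to 0.18 for RPS9 -0.20 to 0.13 for MYC, -0.14 to 0.010 for MTOR, -0.095 to 0.067 for RPS3, -0.045 to 0.30 for RPL26, -0.11 to 0.090 for RPL7, -0.25 to 0.044 for RPL36AL, -0.15 to 0.065 for NKIRAS1 and -0.065 to 0.060 for RPL30-AS1. With all 6 libraries RPL8 had -0.00026 under the filter of 10 counts in each library, and RPS2 had 0.013 with limma on log2(FPKM + 1) and on log2(FPKM + 0.1). RPL7A stayed first of the large subunit by canonical transcript length, an alternative chosen after the data were seen.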
